A study of Mus musculus with 36 samples.

Results

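Mesenchymal stem cells (MSCs) have no single defining surface protein, and are recognised by combinations of them. The genes described here are 10 transcripts that encode surface markers used for this purpose in mouse or human MSCs, namely Ly6a, Thy1, Eng, Nt5e, Cd44, Cd34, Pdgfra, Pdgfrb, Mcam and Alcam. They were chosen by name among the 24411 genes quantified in each library, with no threshold on their values. Each had expected counts in all 11 RNA-seq libraries analysed, except that Nt5e had none in replicate 3 of the P-MSCs.

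The cells were MSCs of C57BL6/J mice of 8 weeks of age, from femoral bone marrow (fBM-MSCs), vertebral bone marrow (vBM-MSCs), adipose tissue (A-MSCs) and lung (P-MSCs). No gene was altered and no treatment was compared. The 4 tissues were taken from the same 3 mice, but which libraries share a mouse was not stated. All cells were grown on collagen-coated dishes in MesenCult medium with MesenPure and a Rock inhibitor, and were used within 3 passages. Bone was crushed to release the marrow cells, whereas adipose tissue and lung were minced and digested with collagenase, so the isolation and the bone marrow or non-bone marrow origin cannot be told apart. RNA-seq was available for 3 libraries each of fBM-MSCs, A-MSCs and P-MSCs and for 2 of vBM-MSCs, whose remaining RNA library (replicate 3) was not analysed here. ATAC-seq was available as 1 pooled list of peaks per tissue.

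Surface markers of MSCs act as adhesion molecules, growth factor receptors and ectoenzymes, and most of them are shared with other cell types. Endothelial cells also carry endoglin, CD34 and MCAM, haematopoietic progenitors carry Sca-1 and CD34, and pericytes carry MCAM and PDGFRβ. An antibody panel of positive and negative markers is therefore used to define the cells, and mouse and human panels differ.

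The label of the cells was set against marker lists of other cell types. Depth was 19569650 to 40517739 expected counts per library. Ptprc, which encodes the pan-leukocyte antigen CD45, was at 0 to 0.35 TPM (a level scaled for transcript length and library total) in every library. The 7 mesenchymal stroma genes were present in every library and moved with the tissues, with sums of 5436 to 6651 TPM in fBM-MSCs, 4088 to 5064 in vBM-MSCs, 2990 to 3389 in the A-MSCs and 3379 to 3604 in the P-MSCs. Of these, 6 of 7 were higher and none lower in bone marrow MSCs (24.8% of all genes tested were higher), with a median log2 difference of 1.01, and their part in the marker differences was not tested. Pecam1, of endothelial cells, was at 0 to 0.34 TPM except in replicate 1 of the A-MSCs, where it was at 3.84 TPM and Emcn, another endothelial gene, at 49.5 TPM. Adipoq, Plin1, Cfd, Lep and Cidec, the adipocyte genes, were at 0 in all P-MSC libraries and summed to 0.4 to 23.4 TPM in A-MSCs. The 7 mesothelial genes moved with the tissues as well. They summed to 1.84 to 11.1 TPM in fBM-MSCs, 9.26 to 12.3 in vBM-MSCs, 77.7 to 95.7 in the A-MSCs and 54.8 to 64.0 in the P-MSCs, but the P-MSC sum was nearly all Krt19, a keratin at a mean of 54.9 TPM there and 18.2 in A-MSCs. The other 6 genes were higher in A-MSCs than in P-MSCs, and Wt1 and Lrrn4 were at 0 in the P-MSCs. In fBM-MSCs 7 of 7 were lower than in A-MSCs (20.3% of all genes tested were lower there), and 5 of 7 were lower in bone marrow than in non-bone marrow MSCs (22.4% of all genes were lower). Krt8, Wt1 and Upk3b had means of 14.5, 12.4 and 11.4 TPM in A-MSCs, and Wt1 and Krt8 were at 0 in every bone marrow library. The part of mesothelial cells in the marker differences of A-MSCs, P-MSCs and bone marrow MSCs was not tested. In bulk RNA, fewer cells of a type and less RNA per cell cannot be told apart.

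Transcripts of the 10 markers made up 0.0509% to 0.174% of all TPM. Their sum was 1001 ± 109 TPM in fBM-MSCs (SD, n = 3), 1586 ± 210 in vBM-MSCs (n = 2), 656 ± 42.8 in the A-MSCs (n = 3) and 526 ± 24.4 in the P-MSCs (n = 3). Cd44 and Ly6a together accounted for 76.4% to 87.9% of it in each library, so the sum mainly followed these genes. The markers other than Cd44 and Thy1 differed among the 4 tissues, 8 of 10 at an adjusted p under 0.05, against 60.6% of the 12509 genes tested (edgeR's quasi-likelihood F test, Benjamini-Hochberg adjusted over all genes tested). The adjusted p was 0.0917 for Cd44 and 0.28 for Thy1. Here and in what follows, p-values measure the spread between these libraries only.

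**Figure D1:**
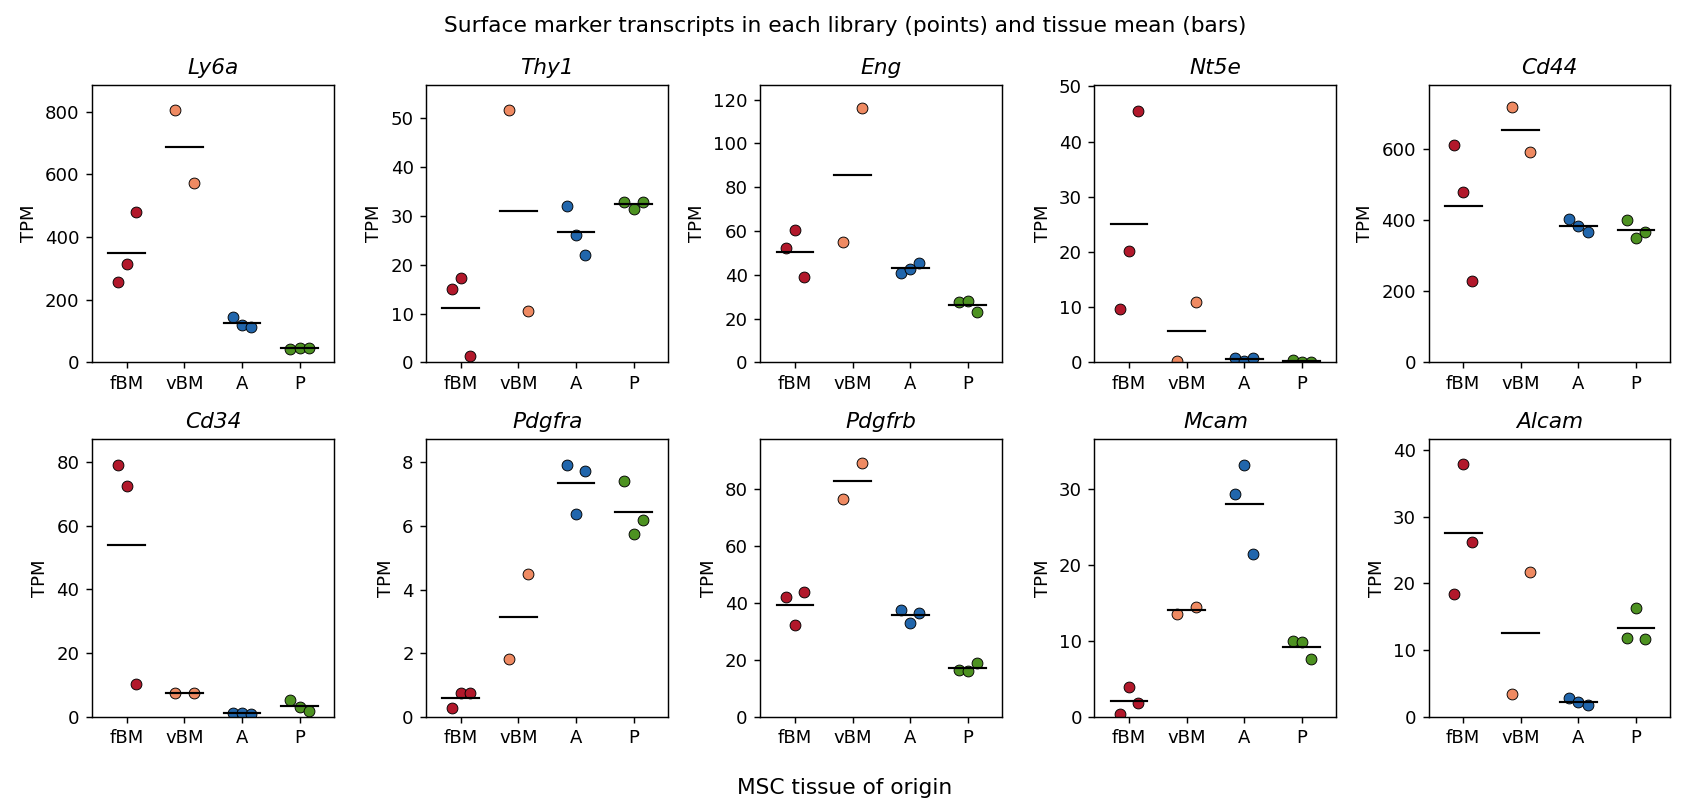
Level of each marker transcript in TPM (y axis, linear, from 0) by tissue (x axis). Points are single libraries and bars are tissue means. Ly6a was at 256 TPM or more in every bone marrow library and at 145 or less in every other, whereas the points of these groups overlap for Cd44.

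Bone marrow MSCs had more Ly6a, Cd34, Nt5e, Alcam, Pdgfrb and Eng transcripts than non-bone marrow MSCs, and fewer Pdgfra and Mcam transcripts. These were 8 of 10 markers past the threshold, 6 of them higher and 2 lower, against 47.2% of all genes tested (24.8% higher, 22.4% lower). The median log2 difference of the 10 was 1.09, against 0.03 over all genes tested. The libraries of the groups, 5 of bone marrow and 6 of non-bone marrow, did not overlap in TPM for 3 of the 10 markers, against 19.9% of all genes tested. These were Ly6a and Cd34, with every bone marrow library above (10.4% of genes tested), and Pdgfra, with every one below (9.51%). Genes of proliferation moved with this comparison as well: 6 of 6 were lower in bone marrow MSCs (22.4% of all genes tested), and they summed to 166 to 188 TPM in fBM-MSCs, 167 to 183 in vBM-MSCs, 386 to 417 in the A-MSCs and 745 to 803 in the P-MSCs. Their part in the marker differences was not tested.

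Ly6a encodes Sca-1, a GPI-anchored protein of the Ly6 family by which mouse stromal and haematopoietic progenitors are sorted. Its level was 256, 316 and 480 TPM in fBM-MSCs, 805 and 571 in vBM-MSCs, 145, 121 and 114 in the A-MSCs, and 42.3, 46.5 and 46.1 in the P-MSCs. The tissues followed the order vBM-MSCs, fBM-MSCs, A-MSCs, P-MSCs without any overlap between neighbours. Each step of this order passed the test, with log2 differences of 0.95 ± 0.25 (SE, adjusted p = 0.03), 1.39 ± 0.23 (adjusted p = 0.000726) and 1.70 ± 0.24 (adjusted p = 0.00046). The first step, between both bone marrow sites, did not pass without fBM-MSC replicate 1 (adjusted p = 0.0689), without fBM-MSC replicate 2 (0.0911) or without vBM-MSC replicate 1 (0.292, log2 difference of fBM-MSCs minus vBM-MSCs −0.54). Bone marrow exceeded non-bone marrow by 2.72 ± 0.18 on the log2 scale (adjusted p = 5.74e-07).

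Of the other Ly6 and uPAR family genes, 6 of 15 were tested, and 3 rose and 1 fell in bone marrow MSCs, when 24.8% of all genes tested rose and 22.4% fell. Ly6c1, a close relative of Ly6a and a marker of endothelial cells and monocytes, was at 27.3 ± 16.1 TPM in fBM-MSCs (SD, n = 3), 38.3 ± 1.82 in vBM-MSCs (n = 2), 5.62 ± 1.47 in the A-MSCs (n = 3) and 1.96 ± 0.93 in the P-MSCs (n = 3). It was higher in bone marrow by 3.29 ± 0.35 (log2 ± SE, adjusted p = 1.96e-05). Lynx1, a regulator of nicotinic receptors, rose by 1.70 ± 0.13 (adjusted p = 1.39e-06) and Ly6e by 0.49 ± 0.11 (adjusted p = 0.0042), whereas Plaur, the urokinase receptor, had a difference of −0.73 ± 0.15 (adjusted p = 0.00186). Its means were 120 TPM in fBM-MSCs and 309, 322 and 317 TPM in vBM-MSCs, A-MSCs and P-MSCs, so only fBM-MSCs lay low. Ly6a and Ly6c1 had expected counts that were not whole, such as 2416.79 and 97.21 in fBM-MSC replicate 1, so reads shared with other genes were divided by the model of RSEM and these levels carry that uncertainty. The counts of Plaur, Ly6e and Lynx1 were whole in every library.

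CD44 is the receptor of hyaluronan and also binds osteopontin. Cd44 was the most abundant marker in 3 of the 4 tissues, at 611, 481 and 229 TPM in fBM-MSCs, 720 and 591 in vBM-MSCs, 405, 383 and 367 in the A-MSCs, and 400, 352 and 368 in the P-MSCs. Replicate 3 of the fBM-MSCs lay below all other libraries, and the remaining fBM-MSC and both vBM-MSC libraries lay above all A-MSC and P-MSC libraries. The bone marrow difference was 0.51 ± 0.20 on the log2 scale (adjusted p = 0.0558), and without fBM-MSC replicate 3 it was 0.67 (adjusted p = 0.000338). The only pair of tissues that passed was vBM-MSCs against P-MSCs, at 0.90 ± 0.30 (adjusted p = 0.0332), and this call was lost without vBM-MSC replicate 1 (adjusted p = 0.212) and without each of the P-MSC replicates (adjusted p = 0.0611, 0.0893 and 0.0829). It was also lost with the replicate number as a block (0.74, adjusted p = 0.0549) and with limma-trend on log2(TPM + 0.1) (0.81, adjusted p = 0.0502). Without fBM-MSC replicate 3, Cd44 passed as well in fBM-MSCs against A-MSCs (0.44, adjusted p = 0.039) and P-MSCs (0.67, adjusted p = 0.00352) and in vBM-MSCs against A-MSCs (0.67, adjusted p = 0.00666). With the tissues of a pair by themselves, it passed in vBM-MSCs against A-MSCs (adjusted p = 0.0163) and in A-MSCs against P-MSCs (0.24, adjusted p = 0.00927), and without fBM-MSC replicate 1 fBM-MSCs differed from vBM-MSCs by −0.89 (adjusted p = 0.0496).

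The hyaluronan list, with 11 of 15 genes tested, had 2 genes higher and 4 lower in bone marrow MSCs (all genes tested: 24.8% and 22.4%), so the 6 called of 11 were near the 47.2% of all genes, with a median log2 difference of −0.30. Spp1, which encodes osteopontin, was at 49580 ± 30420 TPM in fBM-MSCs (SD, n = 3), 5300 ± 5286 in vBM-MSCs (n = 2), 363 ± 18.3 in the A-MSCs (n = 3) and 221 ± 61.5 in the P-MSCs (n = 3), and was higher in bone marrow by 5.80 ± 0.45 (log2 ± SE, adjusted p = 1.84e-06). Hyal1, a hyaluronidase, rose by 2.31 ± 0.26 (adjusted p = 2.91e-05). Vcan, a hyaluronan-binding proteoglycan, fell by 1.46 ± 0.15 (adjusted p = 1.61e-05) and Hmmr, a hyaluronan receptor that is also a mitotic gene, fell by 2.31 ± 0.16 (adjusted p = 9.95e-07).

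CD34 is a sialomucin of haematopoietic progenitors, endothelium and some stromal cells. By flow cytometry, the paper reports the MSCs of every tissue as negative for CD34 and as positive for CD44 and Sca-1. The values given here are transcript levels and not surface protein. Cd34 was at 79.2, 72.7 and 10.2 TPM in fBM-MSCs, 7.33 and 7.46 in vBM-MSCs, 1.18, 1.02 and 0.91 in the A-MSCs, and 5.15, 2.91 and 1.69 in the P-MSCs. Replicates 1 and 2 of the fBM-MSCs stood above all other libraries and replicate 3 lay near the vBM-MSCs. Bone marrow exceeded non-bone marrow by 3.43 ± 0.47 (log2 ± SE, adjusted p = 0.000114), with all 5 libraries above all 6. fBM-MSCs exceeded vBM-MSCs by 2.91 ± 0.72 (adjusted p = 0.0226), a call that was lost without fBM-MSC replicate 2 (adjusted p = 0.056), vBM-MSC replicate 1 (0.127) or vBM-MSC replicate 2 (0.0825).

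Other cells that carry CD34 were looked for by their markers. The 8 endothelial genes summed to 0.11 to 2.12 TPM in fBM-MSCs, where Cd34 was highest, with Tie1 and Emcn at 0. Their sum was 1.57 to 5.67 TPM in vBM-MSCs, 6.86 to 60.7 in the A-MSCs and 3.98 to 9.56 in the P-MSCs. The 12 haematopoietic genes summed to 40.5 to 52.6 TPM in fBM-MSCs, 24.4 to 45.3 in vBM-MSCs, 18.04 to 27.24 in the A-MSCs and 15.0 to 17.1 in the P-MSCs, so this sum, like Cd34, reached its highest value in fBM-MSCs, with an overlap between both bone marrow sites. Lyz2, a gene of macrophages and granulocytes, had means of 27.0 and 29.2 TPM in fBM-MSCs and vBM-MSCs, and of 9.27 and 2.09 in the A-MSCs and P-MSCs. It was higher in bone marrow, as Cd34 was, by 2.65 ± 0.26 (log2 ± SE, adjusted p = 9.31e-06). Cd68, a lysosomal gene of macrophages, was highest in fBM-MSCs as Cd34 was, at 14.6 TPM against 1.79 in vBM-MSCs, 5.0 in the A-MSCs and 6.18 in the P-MSCs. Its level in fBM-MSCs exceeded that in vBM-MSCs by 3.06 ± 0.50 (log2 ± SE, adjusted p = 0.00305). Cd68 was named after its values were seen. Of the 4 haematopoietic genes tested, it was the only 1 called between both bone marrow sites. Cd14, also among the 4, had another order. It was highest in P-MSCs, at a mean of 5.09 TPM, and lowest in A-MSCs, at 2.08. Its bone marrow means lay between these, at 3.56 TPM (femoral) and 2.87 TPM (vertebral). Csf1r, the receptor of macrophage colony-stimulating factor, was lowest in fBM-MSCs, at 0.74 TPM against 5.90 in the A-MSCs. Itgam, Adgre1, Cd79a and Cd3e were at 0 in every bone marrow library. The part of haematopoietic cells in the Cd34 differences was not tested.

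Of the sialomucin and selectin genes, 4 of 6 were tested, and 1 rose and 2 fell in bone marrow MSCs (all genes tested: 24.8% and 22.4%). Podxl2, which encodes the sialomucin endoglycan, was higher by 2.40 ± 0.28 (log2 ± SE, adjusted p = 3.65e-05). Selp, or P-selectin, had a difference of −1.63 ± 0.55 (adjusted p = 0.0288), with means of 1.53 TPM in fBM-MSCs, 0.525 in vBM-MSCs, 1.5 in the A-MSCs and 5.20 in the P-MSCs. Podxl, or podocalyxin, a close relative of CD34, was called lower (adjusted p = 0.0051) at means of 0 to 0.283 TPM, with no transcript in either vBM-MSC library.

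CD73, the product of Nt5e, is the ectoenzyme that turns extracellular AMP into adenosine. Nt5e was at 9.61, 20.2 and 45.6 TPM in fBM-MSCs, 0.32 and 11 in vBM-MSCs, 0.86, 0.29 and 0.75 in the A-MSCs, and 0.48, 0.15 and 0 in the P-MSCs. Only the fBM-MSCs and replicate 2 of the vBM-MSCs stood apart from the other libraries, and replicate 1 of the vBM-MSCs, with 22 expected counts, lay among the A-MSC and P-MSC libraries. The log2 difference between bone marrow and non-bone marrow was 4.97 ± 0.83 (adjusted p = 0.000479), and 2.99 (adjusted p = 0.0161) without vBM-MSC replicate 2. fBM-MSCs exceeded A-MSCs by 5.26 ± 1.13 (adjusted p = 0.00353) and P-MSCs by 6.95 ± 1.26 (adjusted p = 0.000848). vBM-MSCs exceeded P-MSCs by 4.68 ± 1.23 (adjusted p = 0.0107), but not without vBM-MSC replicate 2, where the value was 0.72 (adjusted p = 0.72), and not with limma-trend, at 1.74 on log2(TPM + 1) (adjusted p = 0.0876) and 3.15 on log2(TPM + 0.1) (adjusted p = 0.0504).

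Among the other genes of the adenosine pathway, 11 of 14 were tested, and 4 rose and 3 fell in bone marrow MSCs (all genes tested: 24.8% and 22.4%), with a median log2 difference of −0.13. Alpl, tissue-nonspecific alkaline phosphatase, which also cleaves AMP and is an osteoblast product, was at 78.8 ± 81.9 TPM in fBM-MSCs (SD, n = 3), 44.2 ± 46.2 in vBM-MSCs (n = 2) and 0.32 ± 0.28 in the A-MSCs (n = 3), was listed at 0 in all P-MSC libraries, and passed the test (adjusted p = 4.96e-05). Enpp1, which generates AMP from ATP, rose by 3.19 ± 0.33 (log2 ± SE, adjusted p = 1.61e-05) and Slc29a1, a nucleoside transporter, by 2.76 ± 0.20 (adjusted p = 1.08e-06). Entpd2, which degrades ATP, was called higher (adjusted p = 6.61e-05) and was at 0 in all P-MSC libraries. A pair of genes was named after their values were seen. Adora2b, an adenosine receptor, fell in bone marrow by 2.64 ± 0.27 (adjusted p = 1.38e-05), with 3.66 ± 2.10 TPM in fBM-MSCs and 41.4 ± 4.27 in the A-MSCs. Entpd1, or CD39, which acts upstream of CD73, was also called lower (adjusted p = 0.0134). Its means were 0.0467 TPM in fBM-MSCs and 1.6, 1.31 and 1.71 TPM in vBM-MSCs, A-MSCs and P-MSCs, so only fBM-MSCs lay low.

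Endoglin (CD105), encoded by Eng, is a co-receptor of the TGF-β and BMP family. Its transcript was at 52.3, 60.5 and 38.8 TPM in fBM-MSCs, 55 and 116 in vBM-MSCs, 40.9, 42.5 and 45.6 in the A-MSCs, and 27.4, 27.9 and 23 in the P-MSCs. P-MSCs lay below every other library, whereas fBM-MSCs overlapped both vBM-MSCs and A-MSCs. A-MSCs exceeded P-MSCs by 0.91 ± 0.21 (log2 ± SE, adjusted p = 0.00779) and bone marrow exceeded non-bone marrow by 0.96 ± 0.16 (adjusted p = 0.00041). Eng overlaps Fpgs in the annotation and the library protocol does not mark strand. The expected counts of Eng were whole in every library and so show no sign of reads divided with another gene. Whether reads of Fpgs were counted for Eng was not tested.

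Of 15 endoglin partner genes, 13 were tested and all of them differed among tissues, as did 60.6% of all genes tested, and 7 rose and 3 fell in bone marrow MSCs (all genes tested: 24.8% and 22.4%), with a median log2 difference of 0.55. Acvrl1 (ALK1), the type I receptor with which endoglin acts in endothelium, fell in bone marrow by 1.55 ± 0.32 (log2 ± SE, adjusted p = 0.00212), at 5.48 ± 3.50 TPM in fBM-MSCs (SD, n = 3), 17.2 ± 1.16 in vBM-MSCs (n = 2), 16.7 ± 1.45 in the A-MSCs (n = 3) and 48.1 ± 2.92 in the P-MSCs (n = 3). P-MSCs thus had the highest Acvrl1 and the lowest Eng of the 4 tissues. Tgfbr3, the co-receptor betaglycan, fell by 1.29 ± 0.13 (adjusted p = 1.21e-05). The ligand Bmp7 was called higher (adjusted p = 0.00545), at means of 1.13 TPM in fBM-MSCs and 0.05 in vBM-MSCs and at 0 in all other libraries. Bmp2 was higher by 4.13 ± 0.52 (adjusted p = 6.18e-05), Tgfb1 by 1.06 ± 0.20 (adjusted p = 0.000944) and Tgfb2 by 0.94 ± 0.14 (adjusted p = 0.000232). The Tgfb2 means were 14.7, 17.1 and 16.8 TPM in fBM-MSCs, vBM-MSCs and A-MSCs and 4.07 in the P-MSCs, so only P-MSCs lay low. Tgfb3 had a difference of −0.03 ± 0.12 (adjusted p = 0.866). Gdf2, which encodes the high-affinity ligand BMP9, was at 0 in all libraries.

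Pdgfra and Pdgfrb encode the receptor tyrosine kinases for platelet-derived growth factors. Pdgfra was low, at 0.27, 0.76 and 0.75 TPM in fBM-MSCs, 1.81 and 4.48 in vBM-MSCs, 7.93, 6.37 and 7.72 in the A-MSCs, and 7.42, 5.74 and 6.2 in the P-MSCs. fBM-MSCs lay below vBM-MSCs and both lay below A-MSCs and P-MSCs, which overlapped. Bone marrow differed by −2.33 ± 0.26 (log2 ± SE, adjusted p = 2.94e-05), and fBM-MSCs differed from vBM-MSCs by −2.31 ± 0.37 (adjusted p = 0.00277). The lowest value rested on 23 expected counts, in fBM-MSC replicate 1. vBM-MSCs were lower than A-MSCs (−1.36 ± 0.37, adjusted p = 0.0206), but the call was lost without vBM-MSC replicate 1 (adjusted p = 0.125) or A-MSC replicate 1 (0.0502) or 3 (0.0531).

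Pdgfrb was higher than Pdgfra in every library. It was at 42.1, 32.4 and 43.9 TPM in fBM-MSCs, 76.7 and 89.4 in vBM-MSCs, 37.6, 32.8 and 36.6 in the A-MSCs, and 16.5, 16.2 and 18.8 in the P-MSCs. vBM-MSCs lay above and P-MSCs below all other libraries, and fBM-MSCs overlapped A-MSCs. vBM-MSCs exceeded fBM-MSCs by 1.02 ± 0.15 (log2 ± SE, adjusted p = 0.00137), A-MSCs exceeded P-MSCs by 1.25 ± 0.13 (adjusted p = 8.69e-05), and the difference of fBM-MSCs from A-MSCs was 0.08 ± 0.13 (adjusted p = 0.661).

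Since TPM are scaled for transcript length, the receptors can be set against each other within a library. Pdgfrb exceeded Pdgfra by 42.6- to 156-fold in fBM-MSCs, 19.95- to 42.4-fold in vBM-MSCs, 4.74- to 5.16-fold in A-MSCs and 2.22- to 3.02-fold in P-MSCs, a description without a test. Of the 4 ligand genes, 3 were higher and none lower in bone marrow MSCs (all genes tested: 24.8% and 22.4%). Pdgfa, at means of 82.4 to 145 TPM, rose by 0.74 ± 0.10 (log2 ± SE, adjusted p = 0.000147). Pdgfc rose by 2.70 ± 0.21 (adjusted p = 1.75e-06), from 3.31 ± 0.29 TPM in A-MSCs and 6.83 ± 0.91 in the P-MSCs to 33.7 ± 12.8 in fBM-MSCs and 28.6 ± 14.4 in vBM-MSCs. Pdgfb, whose product binds both receptors, passed as well (adjusted p = 0.00627) but was near the limit of detection, with means of 0.0333 to 1.31 TPM. Pdgfd, a ligand of PDGFRβ, had a difference of 0.19 ± 0.26 (adjusted p = 0.567).

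Thy1 encodes CD90, a GPI-anchored glycoprotein of the immunoglobulin superfamily. It was at 15, 17.2 and 1.21 TPM in fBM-MSCs, 51.5 and 10.5 in vBM-MSCs, 31.9, 26 and 22 in the A-MSCs, and 32.8, 31.3 and 32.8 in the P-MSCs. The highest and the lowest library were both of bone marrow, and the vBM-MSCs spanned all A-MSC and P-MSC libraries. fBM-MSCs lay below all A-MSC and P-MSC libraries, with a log2 difference of −1.35 ± 0.73 from A-MSCs (adjusted p = 0.16) and of −1.43 ± 0.73 from P-MSCs (adjusted p = 0.127). No pair of tissues passed for Thy1 with edgeR, and fBM-MSCs against P-MSCs passed with limma-trend, at −1.95 on log2(TPM + 1) (adjusted p = 0.0354) and −2.21 on log2(TPM + 0.1) (adjusted p = 0.0422). Leaving out vBM-MSC replicate 1 moved the bone marrow difference from −0.63 to −1.50 and leaving out replicate 2 moved it to −0.25.

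MCAM (CD146) is an adhesion molecule of pericytes, smooth muscle and endothelium. Mcam was at 0.39, 3.91 and 1.74 TPM in fBM-MSCs, 13.6 and 14.5 in vBM-MSCs, 29.4, 33.2 and 21.4 in the A-MSCs, and 9.93, 9.88 and 7.66 in the P-MSCs. The libraries of each tissue formed a range of their own in the order A-MSCs, vBM-MSCs, P-MSCs, fBM-MSCs, of which only the last step passed, at 2.05 ± 0.48 (log2 ± SE, adjusted p = 0.00429). fBM-MSCs were also lower than vBM-MSCs (−2.74 ± 0.51, adjusted p = 0.00639) and A-MSCs (−3.85 ± 0.50, adjusted p = 0.000147). A-MSCs exceeded P-MSCs by 1.80 ± 0.45 (adjusted p = 0.0117), and not without P-MSC replicate 3 (adjusted p = 0.0523). The earlier steps of the order passed under some alternatives, vBM-MSCs against A-MSCs without fBM-MSC replicate 1 (−1.11, adjusted p = 0.0159) and with these tissues by themselves (adjusted p = 0.00682), and vBM-MSCs against P-MSCs with these by themselves (0.69, adjusted p = 0.0156).

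The sum of the 9 pericyte and smooth muscle genes, most of it Acta2 and Tagln of smooth muscle, had the order of tissues of Mcam, but the single genes did not all share it. The sum was 11740 to 12140 TPM in A-MSCs, 6096 to 7473 in vBM-MSCs, 4327 to 5023 in the P-MSCs and 1061 to 1464 in fBM-MSCs. Myh11 and Des of muscle were highest in A-MSCs with P-MSCs next, at 6.63 and 4.28 TPM and at 208 and 6.96 TPM, whereas Rgs5 and Notch3 were highest in vBM-MSCs, at 2.67 and 0.835 TPM. All 7 of the genes that were tested differed between bone marrow and non-bone marrow, 3 higher and 4 lower (all genes tested: 24.8% and 22.4%). Acta2, smooth muscle actin, was among the 3 genes whose profile was closest to that of Mcam. Of the pericyte genes, Rgs5 was at 0 in all A-MSC libraries, where Mcam was highest, while Kcnj8 had a mean of 0.143 TPM there and Abcc9 did not exceed 0.1 TPM in any library. Cspg4, also of pericytes, was lowest in A-MSCs as well. Its means were 1.23 TPM there, 4.94 in the P-MSCs, 8.07 in fBM-MSCs and 16.5 in vBM-MSCs. The sum of the endothelial genes was also highest in A-MSCs and lowest in fBM-MSCs, and of the 5 tested 3 were lower in bone marrow and none higher (22.4% of all genes tested were lower), namely Emcn and Cdh5, at means of 19.1 and 0.663 TPM in A-MSCs, and Kdr, highest in P-MSCs at 2.56 TPM. The part of pericytes, smooth muscle and endothelium in the Mcam differences was not tested.

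ALCAM (CD166) is an immunoglobulin superfamily adhesion molecule that binds itself and CD6. Alcam was at 18.4, 37.8 and 26.2 TPM in fBM-MSCs, 3.35 and 21.7 in vBM-MSCs, 2.77, 2.13 and 1.73 in the A-MSCs, and 11.8, 16.3 and 11.6 in the P-MSCs. A-MSCs lay below every other library and fBM-MSCs above every P-MSC library, while the vBM-MSC libraries lay on either side of the P-MSCs. fBM-MSCs exceeded A-MSCs by 3.56 ± 0.52 (log2 ± SE, adjusted p = 0.000295) and A-MSCs differed from P-MSCs by −2.39 ± 0.50 (adjusted p = 0.00424). The bone marrow difference was 1.75 ± 0.35 (adjusted p = 0.00171), and 0.88 (adjusted p = 0.00597) without vBM-MSC replicate 2, which also moved the difference of vBM-MSCs from A-MSCs from 2.34 ± 0.53 (adjusted p = 0.00809) to 0.59 (adjusted p = 0.267).

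Of the partner genes of THY1, MCAM and ALCAM, 8 of 12 were tested, and 4 rose and 2 fell in bone marrow MSCs (all genes tested: 24.8% and 22.4%). Itgb3, the β subunit of the αvβ3 integrin that binds THY1, was at 10.8 ± 2.76 TPM in fBM-MSCs (SD, n = 3), 9.16 ± 1.29 in vBM-MSCs (n = 2), 2.80 ± 0.84 in the A-MSCs (n = 3) and 0.417 ± 0.384 in the P-MSCs (n = 3), higher in bone marrow by 3.19 ± 0.36 (log2 ± SE, adjusted p = 2.71e-05). Itgb5 rose by 1.62 ± 0.09 (adjusted p = 2.23e-07) and Lgals3, galectin-3, by 1.21 ± 0.15 (adjusted p = 5.32e-05), the latter with 996 ± 127 TPM in fBM-MSCs against 107 to 212 in the other tissues. Kdr, a receptor with which MCAM acts in endothelium, was lower (adjusted p = 0.00366) and was at means of 0.0567 to 2.56 TPM. Cd6, the lymphocyte receptor of ALCAM, had means of 0 to 0.0967 TPM.

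**Figure D2:**
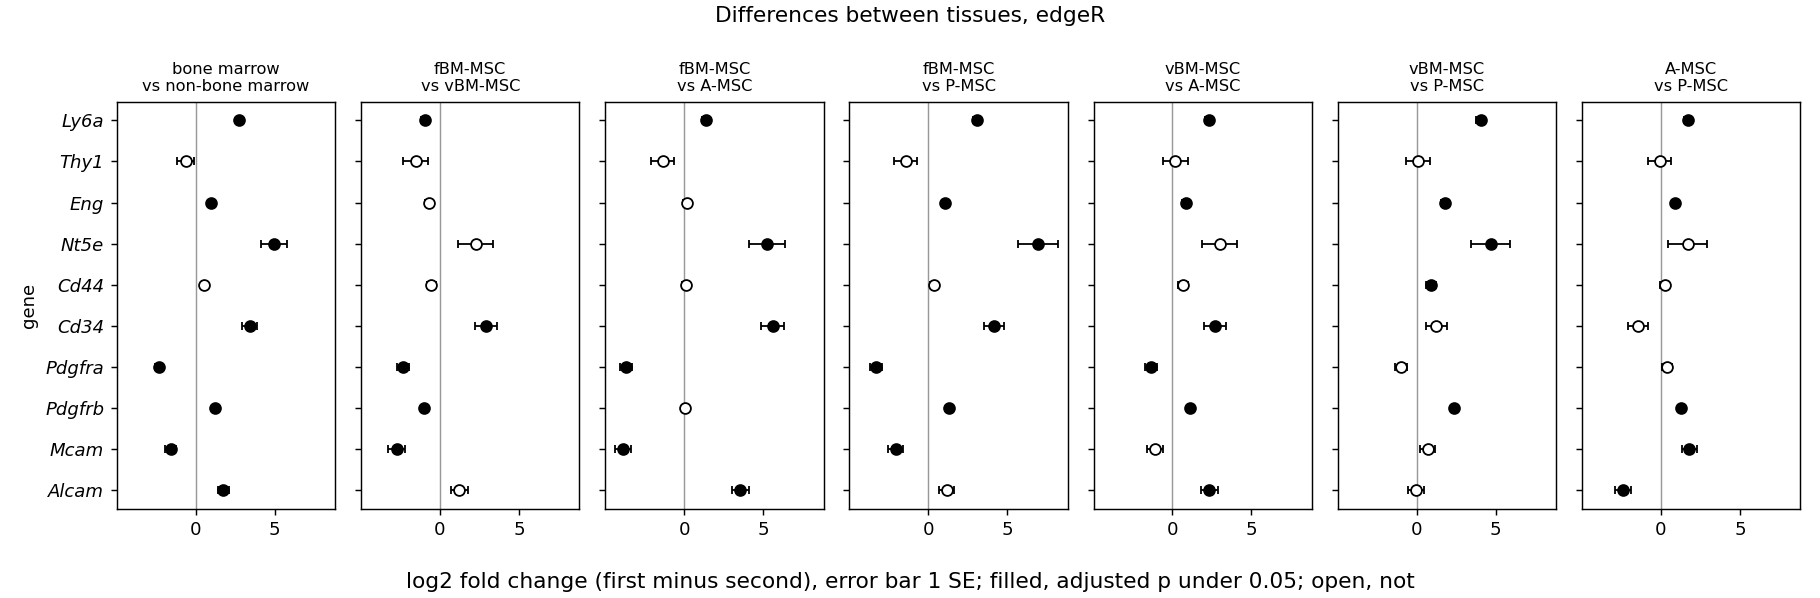
Log2 fold change of each marker (x axis, first tissue minus second) in 7 comparisons, with bars of 1 SE. Filled points passed an adjusted p under 0.05 and open points did not. Ly6a is filled in every panel and Thy1 in none.

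Side by side, the pairs of tissues differed in which markers passed. Between the 2 bone marrow sites, 5 of 10 passed against 12.8% of all genes tested, with Cd34 higher in fBM-MSCs (5.24% of genes in that direction) and Ly6a, Pdgfra, Pdgfrb and Mcam higher in vBM-MSCs (7.56%). The count was 3 without fBM-MSC replicate 2, and in a model of these tissues by themselves it was 1, Pdgfrb, when 305 in place of 1601 of all genes tested were called.

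fBM-MSCs against A-MSCs gave 6 of 10 (background 40.9%), with Ly6a, Nt5e, Cd34 and Alcam higher (20.6%) and Pdgfra and Mcam lower (20.3%) in fBM-MSCs. fBM-MSCs against P-MSCs gave 7 of 10 (47.7%), the higher ones being Ly6a, Eng, Nt5e, Cd34 and Pdgfrb (24.7%) and the lower ones Pdgfra and Mcam (23.0%). The Alcam difference of the latter pair was 1.167 ± 0.468 (log2 ± SE, adjusted p = 0.0592), just outside the threshold. It passed with the replicate number as a block (1.13, adjusted p = 0.0441), with no filter on low counts (adjusted p = 0.0382), without fBM-MSC replicate 1 (adjusted p = 0.0469) or vBM-MSC replicate 1 or 2 (adjusted p = 0.00227 and 0.00229), and with these tissues by themselves (adjusted p = 0.0047).

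vBM-MSCs against A-MSCs gave 6 of 10 (25.6%), with Ly6a, Eng, Cd34, Pdgfrb and Alcam higher (13.2%) and Pdgfra lower (12.4%) in vBM-MSCs. The Eng call was lost without vBM-MSC replicate 2 (0.33 in place of 0.85 on the log2 scale, adjusted p = 0.292) or A-MSC replicate 1 or 2 (adjusted p = 0.0605 and 0.0565), and the Cd34 call without A-MSC replicate 3 (adjusted p = 0.0509). vBM-MSCs against P-MSCs gave 5 of 10 (38.7%), with Ly6a, Eng, Nt5e, Cd44 and Pdgfrb higher in vBM-MSCs (21.0%). The Pdgfra difference of this pair was −0.99 (adjusted p = 0.0532). It passed with DESeq2 (adjusted p = 0.021), with limma-trend on log2(TPM + 1) (adjusted p = 0.0195), with no filter on low counts (adjusted p = 0.0385), with these tissues by themselves (adjusted p = 0.0353) and without fBM-MSC replicate 1 or 3 (adjusted p = 0.0176 and 0.0422) or vBM-MSC replicate 2 (−1.66, adjusted p = 0.0109), and was −0.53 without vBM-MSC replicate 1 (adjusted p = 0.326). A-MSCs against P-MSCs gave 5 of 10 (30.9%), with Ly6a, Eng, Pdgfrb and Mcam higher and Alcam lower in A-MSCs. Other pairs that had not passed did so under single alternatives. Without vBM-MSC replicate 2, Alcam was higher in fBM-MSCs than in vBM-MSCs (2.97, adjusted p = 0.0013) and lower in vBM-MSCs than in P-MSCs (−1.81, adjusted p = 0.00471), and Nt5e was higher in fBM-MSCs than in vBM-MSCs (6.23, adjusted p = 0.0176). Nt5e passed there with limma-trend on log2(TPM + 1) too (adjusted p = 0.048), and in vBM-MSCs against A-MSCs with no filter on low counts (adjusted p = 0.0392) and without vBM-MSC replicate 1 (adjusted p = 0.0112). Eng was lower in fBM-MSCs than in vBM-MSCs with DESeq2 (adjusted p = 0.0289) and without vBM-MSC replicate 1 (adjusted p = 0.0135). Cd34 was lower in P-MSCs than in vBM-MSCs, and in A-MSCs than in P-MSCs, without fBM-MSC replicate 3 (adjusted p = 0.0103 and 0.00645) and with the tissues of each pair by themselves (adjusted p = 0.0455 and 0.016), and Pdgfra was higher in A-MSCs than in P-MSCs with these by themselves (0.38, adjusted p = 0.0423). These comparisons share libraries, so they are not independent of each other.

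The markers varied between libraries of 1 tissue most in the bone marrow MSCs. On the log2(TPM + 1) scale, the median marker spanned 1.21 between its highest and lowest fBM-MSC library, against 0.39 for the median of all genes tested, and 0.73 against 0.29 in vBM-MSCs. In A-MSCs the corresponding values were 0.31 and 0.31, and in P-MSCs 0.30 and 0.23. The Thy1 range in fBM-MSCs, 14.2-fold in TPM, stood at percentile 99.7 among all genes tested, and the Nt5e range in vBM-MSCs, 34.4-fold, at percentile 99.9. Replicate 3 of the fBM-MSCs had the lowest Thy1, Eng, Cd44 and Cd34 of its tissue and the highest Ly6a, Nt5e and Pdgfrb. Replicate 2 of the vBM-MSCs had less Thy1, Ly6a and Cd44 and more Eng, Nt5e, Pdgfra and Alcam than replicate 1.

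**Figure D3:**
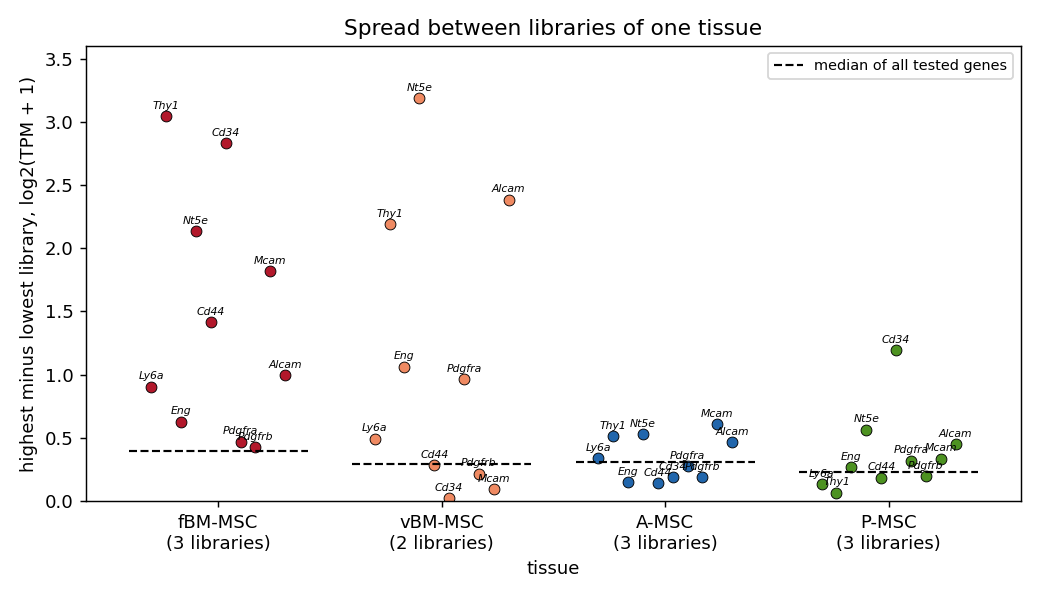
Spread of each marker between libraries of 1 tissue, as the highest minus the lowest log2(TPM + 1) (y axis), by tissue (x axis). Dashed lines are the medians of all genes tested, 0.39, 0.29, 0.31 and 0.23 from left to right. Thy1, Nt5e and Cd34 in fBM-MSCs and Nt5e, Alcam and Thy1 in vBM-MSCs stand highest.

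Profiles were then compared with those of 9463 genes with a range of at least 1.5-fold among tissue means, by the root mean square (RMS) difference between centred log2(TPM + 1) values over all 11 libraries. The genes closest to Ly6a were Synpo (0.282), Ly6c1 (0.386) and Rab3b (0.435), against an RMS of 1.44 for the Ly6a profile itself. Closest to Pdgfrb were Sdc2 (0.153), Vasn (0.198) and Copz2 (0.201), and closest to Eng were Ssc5d (0.211), H2-Eb1 (0.217) and Nbl1 (0.243). Cd44 was followed most closely by Emp1 (0.171), Sgk1 (0.196) and Hbegf (0.212), Pdgfra by Slc43a1 (0.315), Tubb6 (0.318) and Fermt2 (0.319), and Mcam by Csrp1 (0.377), Acta2 (0.45) and Asb2 (0.462). For the markers that varied most between libraries, the nearest genes were Fcer1g (0.335), Dlx5 (0.342) and Gpc1 (0.433) for Nt5e, and Celf2 (0.493), Gjb5 (0.502) and Zdhhc2 (0.507) for Thy1. Cd34 was nearest to Ptpn22 (0.475), Gldn (0.716) and Klhdc8a (0.767), and Alcam to Evi2a (0.45), Ngef (0.466) and Cep250 (0.523).

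Among the other stromal surface markers, 30 of 32 were tested, and 13 rose and 6 fell in bone marrow MSCs (all genes tested: 24.8% and 22.4%), with a median log2 difference of 0.47. Mme (CD10) was at 5.38 ± 4.36 TPM in fBM-MSCs (SD, n = 3) and 6.36 ± 4.89 in vBM-MSCs (n = 2), and at means of 0.00333 and 0.0533 in the A-MSCs and P-MSCs (adjusted p = 7.26e-06). Cd200 was at 32.3 ± 25.01 and 9.36 ± 4.48 TPM in bone marrow and 0.367 ± 0.316 and 0.04 ± 0.07 elsewhere (adjusted p = 4.68e-06). Itga11, a collagen-binding integrin of mesenchymal cells, was higher in bone marrow by 4.76 ± 0.36 (log2 ± SE, adjusted p = 1.52e-06) and Icam1 by 3.08 ± 0.26 (adjusted p = 2.99e-06). Of the surface proteins stained in the study that are not among the 10, Itgb1 (CD29) had a bone marrow difference of 0.39 ± 0.10 (adjusted p = 0.00884) and Vcam1 (CD106) one of −0.50 ± 0.15 (adjusted p = 0.0154). Neither separated the groups of tissues. Itgb1 was highest in P-MSCs, at a mean of 905 TPM against 851 in fBM-MSCs and 895 in vBM-MSCs, and low in A-MSCs alone, at 489. Vcam1 was high in P-MSCs alone, at 116 TPM, and its means in fBM-MSCs, vBM-MSCs and A-MSCs were 38.8, 62.6 and 42.6.

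ATAC-seq marks open chromatin by the insertions of the Tn5 transposase. Summits of the pooled peak lists were taken at a −log10 q of at least 7, and a promoter was counted as open when a summit lay within 1 kb of an annotated start site. Open promoters were found for 5 of the 10 markers in fBM-MSCs, for 6 in vBM-MSCs, for 5 in the A-MSCs and for 7 in the P-MSCs, against 87.1%, 89.0%, 89.6% and 88.8% of the 11519 tested genes with a start site on chromosomes 1 to 19. Of the markers with a mean of at least 10 TPM, 4 of 8 had a promoter summit in fBM-MSCs, 4 of 7 in vBM-MSCs, 2 of 6 in the A-MSCs and 4 of 6 in the P-MSCs. The share among all genes at that level was 94.2%, 95.4%, 96.4% and 96.8%. With 1 pooled list per tissue there is no replicate check of any of these values, so they are given without tests.

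**Figure D4:**
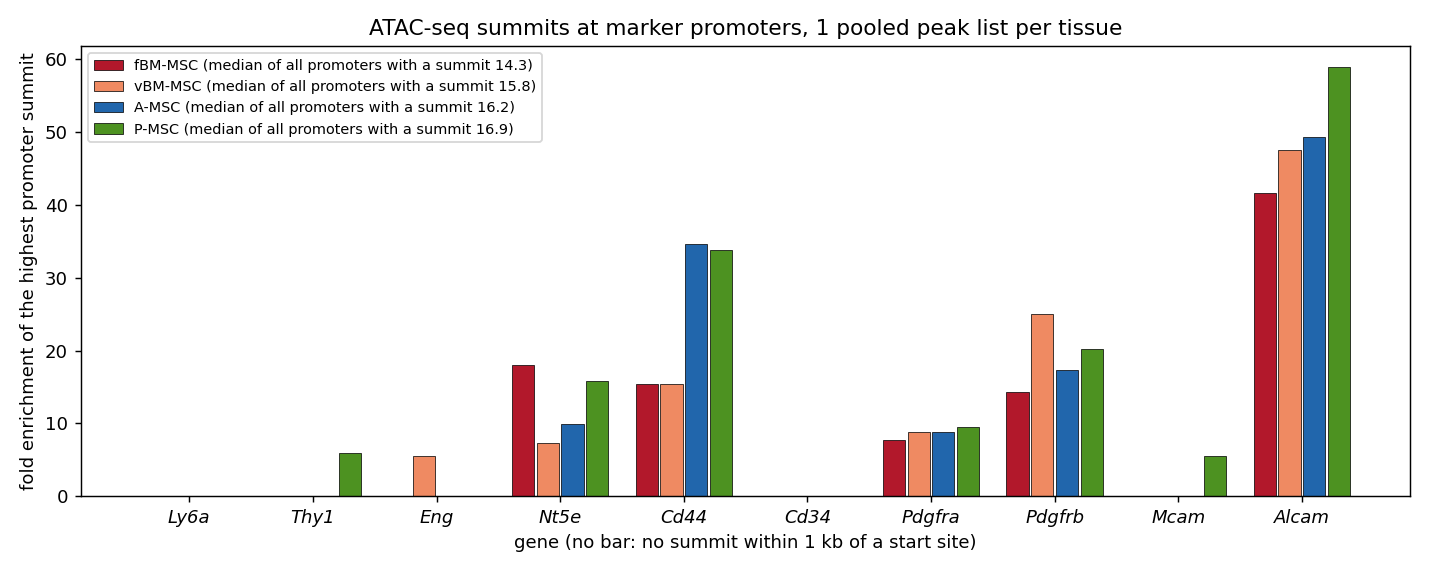
Fold enrichment of the highest summit within 1 kb of a start site of each marker (y axis, linear, from 0) by tissue (bar colour). A missing bar means that no summit passed. Alcam reached 41.6 to 58.9 in the 4 tissues, whereas Ly6a and Cd34 have no bar.

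At this threshold, the markers fell into a set with a promoter summit in all tissues, namely Nt5e, Cd44, Pdgfra, Pdgfrb and Alcam, and a set with one in at most 1 tissue, namely Ly6a, Thy1, Eng, Cd34 and Mcam. Of all tested genes, 83.1% had a summit in all 4 tissues and 6.85% had none. With all summits as deposited, the first set was the same, but Cd34 and Mcam had a promoter summit in 3 tissues and Thy1 and Eng in 2, at a −log10 q of 3 to 8.13, so the second set depends on the threshold. Alcam had the strongest promoter, with a fold enrichment reaching 41.6 in fBM-MSCs, 47.5 in vBM-MSCs, 49.3 in the A-MSCs and 58.9 in the P-MSCs, at percentile 96.4 or above among promoters with a summit in each tissue. A-MSCs, with the lowest Alcam transcript level, thus had a higher value than fBM-MSCs, with the highest. The Cd44 promoter was at 15.5 in both fBM-MSCs and vBM-MSCs, and reached 34.6 in the A-MSCs and 33.8 in the P-MSCs.

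Nt5e, whose transcript was highest in fBM-MSCs, had a promoter value reaching 18.03 in fBM-MSCs, 7.36 in vBM-MSCs, 9.93 in the A-MSCs and 15.8 in the P-MSCs. The Pdgfrb promoter was at 14.3, 25.02, 17.3 and 20.2 in the same order, highest in vBM-MSCs as its transcript was. The Pdgfra promoter was at 7.72 to 9.56, below the median of all open promoters, which was 14.3 to 16.9. Thy1 and Mcam passed only in P-MSCs, at 5.89 and 5.52, and Eng only in vBM-MSCs, at 5.52. The Mcam summit lay within 1 kb of a start site of Gm10687 as well.

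Ly6a had no promoter summit in any tissue, also among all summits as deposited, although its transcript reached 805 TPM. Cd34 had deposited summits that did not pass the threshold, of 4.05 in fBM-MSCs, of 4.42 in vBM-MSCs and of 3.68 in the P-MSCs. The peaks had been called from uniquely aligned reads, and whether this affects the Ly6 region, with its similar genes, was not tested.

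Promoter sequences from RefSeq (GRCm38.p6, 250 bases before to 50 after the start) were at hand for 7 of the 10 markers. They are shown for 2 markers with a promoter summit in every tissue and 2 with one in at most 1 tissue, so that their CpG content can be seen, and the capitals mark each CG. They are given on the strand of the gene, for Alcam chr16:52453032-52453331 (minus), Cd44 chr2:102901616-102901915 (minus), Mcam chr9:44134408-44134707 (plus) and Cd34 chr1:194938571-194938870 (plus).
Alcam: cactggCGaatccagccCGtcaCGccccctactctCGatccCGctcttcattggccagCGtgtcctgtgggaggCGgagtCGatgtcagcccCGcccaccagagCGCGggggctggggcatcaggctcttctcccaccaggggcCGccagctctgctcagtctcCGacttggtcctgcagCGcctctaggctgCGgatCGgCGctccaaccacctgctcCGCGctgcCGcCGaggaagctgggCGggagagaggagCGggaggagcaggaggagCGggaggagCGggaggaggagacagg
Cd44: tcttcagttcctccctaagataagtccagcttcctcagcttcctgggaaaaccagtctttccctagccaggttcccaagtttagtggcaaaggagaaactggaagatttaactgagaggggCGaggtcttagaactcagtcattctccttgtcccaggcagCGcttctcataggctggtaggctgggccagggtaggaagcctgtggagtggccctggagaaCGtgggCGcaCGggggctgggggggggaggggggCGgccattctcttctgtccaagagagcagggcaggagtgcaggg
Mcam: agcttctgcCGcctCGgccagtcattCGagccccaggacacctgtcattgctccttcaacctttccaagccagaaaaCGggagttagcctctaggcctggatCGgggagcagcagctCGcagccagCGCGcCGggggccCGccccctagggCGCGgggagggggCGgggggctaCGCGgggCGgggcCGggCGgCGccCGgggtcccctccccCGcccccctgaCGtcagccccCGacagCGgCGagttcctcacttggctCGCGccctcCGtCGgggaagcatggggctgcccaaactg
Cd34: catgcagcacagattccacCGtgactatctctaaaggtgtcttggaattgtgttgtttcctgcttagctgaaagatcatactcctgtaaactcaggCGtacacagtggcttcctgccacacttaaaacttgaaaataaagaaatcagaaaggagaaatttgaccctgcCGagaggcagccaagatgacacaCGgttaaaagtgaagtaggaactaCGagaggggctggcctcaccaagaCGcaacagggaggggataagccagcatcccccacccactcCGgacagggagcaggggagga

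The number of CG dinucleotides did not sort the promoters that were open in all tissues from the others at this threshold. It was 25 in Alcam, 23 in Nt5e, 6 in Cd44 and 5 in Pdgfra, whose promoters had summits in all tissues, and 29 in Mcam, 7 in Cd34 and 6 in Eng, whose promoters had one in at most 1 tissue. Among tested genes with a sequence, the median was 23 for promoters open in all 4 tissues and 6 for promoters open in none. Mcam had more CG than 74.0% of the 9515 promoters with a sequence and Cd44 more than 8.5%. The Pdgfra sequence is that of its first start site, whereas its highest summit lay 137 to 253 bases downstream of another. The GC box GGGCGG, searched on both strands, was in the sequences of Alcam, Nt5e, Cd44 and Mcam, and in 66% of all promoters. CCAAT was in that of Alcam alone of the 7, and in 38.9% of all promoters, and TATAAA was in none of the 7 and in 7% of all.

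At promoters and beyond, 85 sites lay in the gene bodies of the markers or within 10 kb of them. Of these, 47 were in introns, 16 downstream, 12 at promoters, 6 upstream and 4 in exons. The sites open in all 4 tissues were 22 (25.9%, against 35.7% of sites near all tested genes), and 32 (37.6%, against 33.1%) were open in 1 tissue. Cd44 had 17 sites, Alcam 16, Pdgfra and Pdgfrb 14 each, and Ly6a 2.

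For the 5 markers with a promoter summit in at most 1 tissue, the strongest site outside the promoter is shown as 101 bases of the plus strand of GRCm38 centred on the summit. The capitals mark TGACTCA or its reverse complement TGAGTCA, the letters bound by AP-1 factors. These are an intron of Ly6a (chr15:74995559-74995659), a stretch upstream of Thy1 (chr9:44039916-44040016), an intron of Eng (chr2:32680184-32680284), a stretch downstream of Cd34 (chr1:194962851-194962951), and one upstream of Mcam (chr9:44130119-44130219).
Ly6a: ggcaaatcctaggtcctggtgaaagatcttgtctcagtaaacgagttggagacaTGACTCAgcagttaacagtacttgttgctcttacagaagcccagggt
Thy1: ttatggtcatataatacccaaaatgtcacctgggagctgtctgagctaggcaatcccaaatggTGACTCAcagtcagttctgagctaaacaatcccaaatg
Eng: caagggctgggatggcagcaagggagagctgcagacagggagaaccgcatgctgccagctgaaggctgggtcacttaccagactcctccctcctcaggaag
Cd34: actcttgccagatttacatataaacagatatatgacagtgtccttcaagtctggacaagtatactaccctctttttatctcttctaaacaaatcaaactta
Mcam: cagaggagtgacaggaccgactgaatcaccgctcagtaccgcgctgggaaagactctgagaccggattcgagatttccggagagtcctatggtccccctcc

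The Ly6a intron site, 2422 bases from the start site, had a fold enrichment of 9.93 in vBM-MSCs, 7.73 in the A-MSCs and 14.7 in the P-MSCs and no summit past the threshold in fBM-MSCs. The highest value was thus in P-MSCs, where Ly6a transcripts were fewest. The Thy1 site, at −3418 bases from the start, was open in all tissues, at 5.89 in fBM-MSCs, 9.93 in vBM-MSCs, 9.93 in the A-MSCs and 17.7 in the P-MSCs. The Eng site lay 33639 bases downstream of the start and was at 26.1 to 35.3 in the 4 tissues. Mcam had a site at −4489 bases from the start, within the span of Gm10687, at 11.8 in fBM-MSCs, 17.7 in vBM-MSCs, 15.5 in the A-MSCs and 15.8 in the P-MSCs. The Cd34 site lay 24080 bases downstream of the start, within the span of Gm16897, at 10.3 in fBM-MSCs, 7.73 in the A-MSCs and 15.1 in the P-MSCs, and did not pass in vBM-MSCs.

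The AP-1 letters were present in the sequences of Ly6a and Thy1 among the 5 shown. At the Eng site they lay outside the bases shown, but within 100 bases of the summit. Within 100 bases of the summit, they were found at 25 of the 85 sites near markers (29.4%), against 20.9% of sites near all tested genes. The share was 18.8% of the 32 sites open in 1 tissue, 38.9% of the 18 open in 2, 23.1% of the 13 open in 3 and 40.9% of the 22 open in 4, without a steady order. A match of letters is a description and not a measured binding site.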

How the data were processed

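MSCs of 4 tissues were measured by RNA-seq (Smart-seq2, without strand or molecular identifiers, all libraries of 1 sequencing run by their titles) and by ATAC-seq. The authors ran RSEM with STAR on mm10 and deposited, for each gene and library, the expected count, which is not normalized and was rounded here, and the TPM, which RSEM scales for effective length. For ATAC-seq, the authors aligned reads with Bowtie keeping unique alignments, removed duplicates, shifted reads for Tn5 and called peaks with MACS2 on pooled reads (3 replicates, each sequenced in 2 runs). As deposited, a summit carries its fold enrichment over background (a ratio), its −log10 q and its offset. FPKM values and −log10 p were not used.

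The rounded counts of 11 libraries entered 1 quasi-likelihood model of edgeR 4.0.16 (R 4.3.3) after TMM scaling, without the genes that did not reach a CPM of 1 in 2 or more libraries. Tests were two-sided and p-values were adjusted by Benjamini-Hochberg over the remaining 12509 genes, with a threshold of 0.05. All 10 markers passed the filter. The script was tested on simulated data. Start sites, spans and other annotations came from curated RefSeq transcripts of GRCm38, and summits within 250 bp were merged into 1 site. Libraries were taken as independent, and no 2 libraries held identical values. Alternatives were RLE, DESeq2 1.42.0, limma-trend (limma 3.58.1) on log2(TPM + 1) and log2(TPM + 0.1), no filter, a replicate block, the 2 tissues by themselves, and leaving out each library.

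Named from the other lists were up to 4 genes each with the largest bone marrow difference past the threshold, and direct ligands, receptors or antibody targets of a marker. The markers and lists were chosen with earlier results of these data known. Figures used matplotlib 3.10.9.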

Additional observations from a re-analysis of the deposited data

How the results depend on the processing

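The 8 markers called between bone marrow and non-bone marrow kept their call and direction under all 17 alternatives, and the same 8 stayed called among the 4 tissues. Cd44 joined them in both with DESeq2 and without fBM-MSC replicate 3, for bone marrow also with no filter on low counts and without vBM-MSC replicate 2, and among the tissues without fBM-MSC replicate 1. With the replicate number as a block, the counts of called markers were 8 among the tissues, 8 for bone marrow, 5, 6 and 8 for fBM-MSCs against vBM-MSCs, A-MSCs and P-MSCs, 6 and 4 for vBM-MSCs against A-MSCs and P-MSCs, and 5 for A-MSCs against P-MSCs, with Cd44 lost between vBM-MSCs and P-MSCs and Alcam gained between fBM-MSCs and P-MSCs. Deviations from the tissue mean correlated at −0.0279 to 0.125 between same-numbered libraries (median 0.0073), above 0.1 in 1 of 15 pairs. Between differently numbered libraries they correlated at −0.125 to 0.11 (median −0.0045), above 0.1 in 1 of 30 pairs. Of 11 libraries, 5 correlated best with their own number. With so few libraries per tissue, these values cannot decide which libraries share a mouse.

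With the 2 tissues of a pair by themselves, the counts were 1 for fBM-MSCs against vBM-MSCs, 8 for vBM-MSCs against P-MSCs and 8 for A-MSCs against P-MSCs, when 305 of 12051, 5024 of 11841 and 5263 of 11761 genes tested were called, and limma-trend on log2(TPM + 0.1) gave 3 for vBM-MSCs against P-MSCs. Leaving out 1 library gave 3 to 6 for fBM-MSCs against vBM-MSCs, where all genes called fell from 1601 to 610 without vBM-MSC replicate 1. The cause was not tested. The differences that changed sign had not been called. For Thy1 in vBM-MSCs against A-MSCs and P-MSCs they were −0.16 and −0.44 with limma-trend on log2(TPM + 1), −0.18 and −0.47 on log2(TPM + 0.1), and −0.36 and −0.50 with the replicate block. With a library left out, Thy1 ranged from −2.29 to 0.20 in fBM-MSCs against vBM-MSCs, −1.56 to 0.94 in vBM-MSCs against A-MSCs, −1.64 to 0.86 in vBM-MSCs against P-MSCs and −0.23 to 0.033 in A-MSCs against P-MSCs. Cd44 in fBM-MSCs against A-MSCs ranged from −0.22 to 0.44, Pdgfrb there from −0.0043 to 0.22, Nt5e in vBM-MSCs against A-MSCs from −0.97 to 3.94 and Alcam in vBM-MSCs against P-MSCs from −1.81 to 0.71. Limma-trend moved the median of all genes by over 0.1 in vBM-MSCs against A-MSCs (0.11 and 0.14), A-MSCs against P-MSCs (−0.16 and −0.20) and, on log2(TPM + 0.1), fBM-MSCs against P-MSCs (−0.12).

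With all summits as deposited, promoter summits were found for 6, 8, 8 and 8 markers in the order fBM-MSCs, vBM-MSCs, A-MSCs and P-MSCs, in place of 5, 6, 5 and 7, and at a −log10 q of at least 20 for 4, 3, 3 and 4. The summits near markers, 41, 46, 62 and 54 in the same order, became 86, 89, 109 and 101 as deposited, 18, 14, 21 and 22 at the stricter threshold, and 95, 100, 118 and 105 within 50 kb. The vBM-MSCs, with 2 RNA libraries that differ in several markers, limit the pairs they enter, and ATAC-seq has no replicate error. No sample group was large enough for a test of outlying libraries.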
